A study of Homo sapiens with 6 samples.

Results

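CIRBP, the cold-inducible RNA-binding protein gene, and the genes whose symbols begin with RBM (RNA-binding motif) were followed in U-87 MG cells, an established human glioblastoma cell line. The annotation used here gives 16098 of the 53617 probe sets exactly 1 symbol, for 14884 genes. Probe sets with several symbols or none were not assigned to a gene. Members were the genes whose symbol is CIRBP or begins with RBM, apart from the RBMY genes, which gave 41 of the 14884 genes. They comprised CIRBP and 40 RBM symbols, of which 36 were protein-coding and 4 were antisense transcripts. Where a gene had several probe sets, the one brightest on average over the 6 arrays stood for it. The RBM3, RBMX, RBMX2, RBMXL and RBMS genes have no probe set with 1 symbol and were not analysed here. Probe sets with several symbols were not used for them.

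The exposed group was 3 arrays of U-87 MG cells that received electromagnetic fields (RGFIELDS) without a break for 54 h, starting 24 h after plating. The submitters describe these fields as targeted at HSP70, CHI3L1, hsa-miRNA-381 and the gene of alpha-kinase 2 in mutated form. Such targeting was not tested here. The unexposed group was 3 arrays of the same line, without these fields. All dishes were held at 37°C in a gas mixture with 5% CO2, the exposed ones in a culture box within a Faraday chamber and the unexposed ones in a separate box outside it. Field and box therefore cannot be told apart in any difference below. All values are 1 cell line, and the labels call the replicates independent biological samples.

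Proteins of this group bind RNA through an RNA recognition motif. CIRBP and its close relative RBM3 are the classical members induced by mild cooling, and CIRBP also responds to other stresses and moves to stress granules, where it affects the stability and translation of bound messages. Many RBM proteins are splicing regulators or spliceosome parts, and others work in the exon junction complex, in nuclear RNA decay, in writing the m6A mark on RNA or in the nucleolus. CIRBP transcripts are known to follow body temperature through temperature-dependent splicing, and CIRBP supports circadian rhythms through the CLOCK message.

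The stretches of 250 bases upstream of the RefSeq gene start (build GRCh38.p14) are shown for CIRBP, the member past the threshold, and for the RBM genes with the smallest p in each direction, RBM42 and RBM4B. They lie at chr19:1269082-1269331 on the plus strand (CIRBP), chr19:35628786-35629035 on the plus strand (RBM42) and chr11:66677888-66678137 on the minus strand (RBM4B). Capitals mark GC boxes (GGGCGG) and CCAAT boxes (CCAAT) on either strand.
CIRBP: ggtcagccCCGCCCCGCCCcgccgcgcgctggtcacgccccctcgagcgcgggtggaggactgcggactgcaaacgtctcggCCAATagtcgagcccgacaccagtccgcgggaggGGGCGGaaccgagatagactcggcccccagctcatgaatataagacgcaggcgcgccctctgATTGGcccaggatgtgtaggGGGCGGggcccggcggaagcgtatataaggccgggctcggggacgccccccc
RBM42: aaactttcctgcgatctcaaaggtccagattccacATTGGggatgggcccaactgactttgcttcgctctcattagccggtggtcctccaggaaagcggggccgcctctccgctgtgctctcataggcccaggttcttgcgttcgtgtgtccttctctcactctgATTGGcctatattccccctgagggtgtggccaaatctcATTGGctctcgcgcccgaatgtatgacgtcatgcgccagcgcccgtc
RBM4B: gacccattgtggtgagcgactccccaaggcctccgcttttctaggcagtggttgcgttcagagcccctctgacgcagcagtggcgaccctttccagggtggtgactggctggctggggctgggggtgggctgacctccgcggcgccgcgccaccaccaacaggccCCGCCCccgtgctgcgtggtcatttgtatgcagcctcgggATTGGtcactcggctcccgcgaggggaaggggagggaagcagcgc

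The CIRBP stretch held 4 GC boxes, of which the leftmost pair overlap by 1 base, and 2 CCAAT boxes. RBM42 had 0 GC boxes and 3 CCAAT boxes, and RBM4B had 1 of each. GC boxes stood in 42.6% and CCAAT boxes in 32% of 35116 RefSeq windows of this length. Among 32 protein-coding RBM genes, with 1 window each, the shares were 62.5% and 56.2%. The 35116 windows were not chosen by gene class, so these shares do not compare like with like. The heat shock element core GAANNTTC, the TATA box TATAAA and the E-box CACGTG, also searched on both strands, were not found in these CIRBP letters. They stood in 5.78%, 10.7% and 6.34% of all windows and in 1, 2 and 3 of the 32 RBM windows. Only these patterns were searched. Variants of the TATA box were not counted, such as the letters tatataag near the right end of the CIRBP stretch. These matches describe letters, and binding was not measured.

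CIRBP fell in exposed cells, while no RBM gene passed the threshold in either direction. Values are log2 expression. CIRBP (gene ID 1153, probe set 16856497) stood at 8.67, 8.81 and 8.70 in unexposed replicates 1 to 3 and at 7.90, 7.82 and 8.21 in exposed replicates 1 to 3. All exposed arrays lay below all unexposed arrays, and exposed replicate 3 lay nearest to the unexposed group. The exposed mean was 7.98 ± 0.20 and the unexposed mean 8.73 ± 0.08 (SD, n = 3 each). The log2 change, exposed minus unexposed, was -0.75 (SE 0.10, 95% interval -0.99 to -0.51, limma with Benjamini-Hochberg adjusted p = 0.0287), so exposed cells had 0.595 times the unexposed level.

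A change at least this negative was uncommon among the genes on the array. Lower calls were made for 248 of 14884 genes (1.67%), and 35 genes, called or not, had a more negative change than CIRBP. In the proliferation list (MKI67, TOP2A, CDK1, CCNB2, MCM2, MCM3 and E2F1) 7 of 7 genes fell as well, with a median change of -0.55. The list's mean level was 8.83 to 9.01 on exposed and 9.35 to 9.55 on unexposed arrays. Its part in the CIRBP result was not tested. In bulk RNA, fewer cells with a transcript and less transcript per cell cannot be told apart.

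The CIRBP call depended on single arrays, as did the number of calls over all 14884 genes. Without exposed replicate 1 or 2, or unexposed replicate 2 or 3, 0 genes passed, so losing the call there is not particular to CIRBP. Without unexposed replicate 1 the number was 67, and without exposed replicate 3 it was 325. Without exposed replicate 3 the CIRBP call held, at -0.86 (limma adjusted p = 0.0278). The call was lost without exposed replicate 1 (-0.71, limma adjusted p = 0.120), exposed replicate 2 (-0.67, 0.105), unexposed replicate 1 (-0.78, 0.0537), unexposed replicate 2 (-0.71, 0.0924) or unexposed replicate 3 (-0.76, 0.0988). The CIRBP change stayed between -0.86 and -0.67 in all 6 settings.

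The other probe set named for CIRBP moved the opposite way. Probe set 16866635, assigned in the annotation to the same CIRBP transcript accession as the brighter one, stood at 6.24, 5.75 and 5.82 in unexposed and at 6.56, 6.53 and 6.31 in exposed replicates. The groups did not overlap, though unexposed replicate 1 came close to exposed replicate 3. Its change was 0.53 (SE 0.14, 95% interval 0.20 to 0.86), with limma adjusted p = 0.144 over all probe sets, of which 0.705% passed, and an unadjusted p of 0.00644. Taken in place of the brighter probe set, it gave CIRBP a limma adjusted p of 0.0927 over genes. Averaging both probe sets gave a CIRBP change of -0.11 (limma adjusted p = 0.522). The lower value of CIRBP therefore holds for 1 of the 2 probe sets to which the annotation gives this symbol alone.

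**Figure D1:**
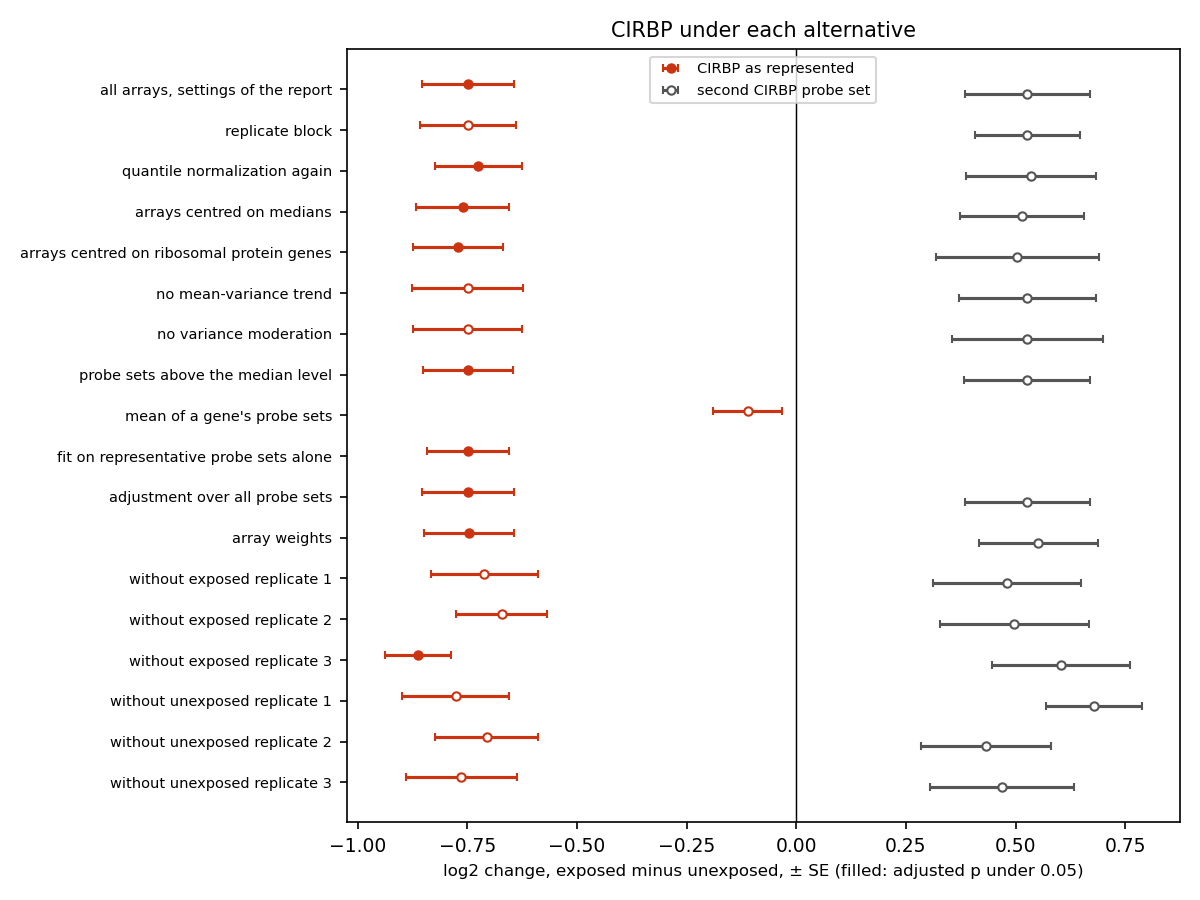
Log2 change of CIRBP, exposed minus unexposed ± SE, for its brighter (red) and other (grey) probe set under each setting; filled points passed an adjusted p of 0.05, and the setting that averages probe sets has 1 point. The brighter probe set stays between -0.86 and -0.67 in every setting except the average at -0.11, and the other stays between 0.43 and 0.68.

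CIRBP-AS1, the antisense transcript that overlaps CIRBP in RefSeq, has a probe set of its own, 16866632. It stood at 4.90, 4.35 and 4.89 in unexposed and at 5.5, 5.27 and 4.52 in exposed replicates. The groups overlapped, since exposed replicate 3 lay below 2 of the unexposed arrays. Its change was 0.39 (SE 0.27, limma adjusted p = 0.50). This value hung on single arrays: leaving out exposed replicate 1 gave 0.19, leaving out unexposed replicate 2 gave 0.21, and leaving out exposed replicate 3 gave 0.68. By number, the CIRBP probe set 16866635 lies between those of CIRBP-AS1 (16866632) and GAMT (16866650). The brighter CIRBP probe set, 16856497, lies between those of MIDN (16856483) and FAM174C (16856510). The annotation used here gives no strand for a probe set. Whether 16866635 reads CIRBP, CIRBP-AS1 or another transcript was not tested.

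Opposite signs between probe sets of one gene were frequent, but rarely with this size. Of 779 genes with more than 1 probe set, 295 had both signs. In 2 of the 779, CIRBP and EXOSC10, a probe set with a positive and one with a negative change both had an unadjusted p under 0.05. In 7 of the 779 one probe set was higher and another lower without overlap of the groups. CIRBP was the 1 gene of the 779 with changes beyond 0.5 log2 in both directions. These counts, and the limit of 0.5, were chosen after the CIRBP values were seen and are a description.

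**Figure D2:**
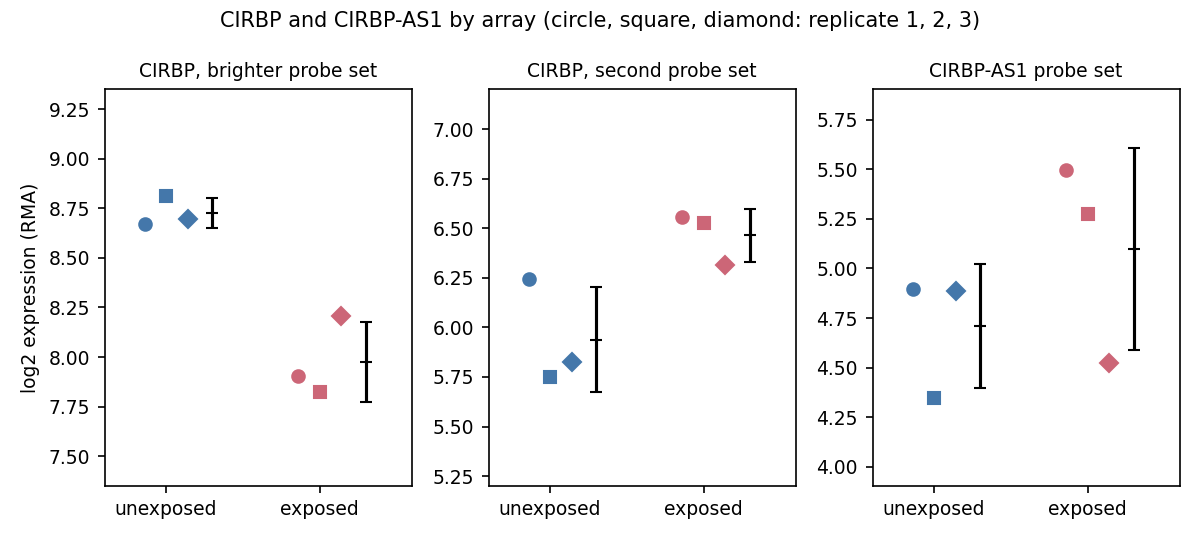
Log2 expression by array for the brighter CIRBP probe set, the other CIRBP probe set and CIRBP-AS1, with mean ± SD of the 3 arrays per group beside the points; each panel spans 2 log2 units, with its own axis. The brighter CIRBP probe set is lower on all 3 exposed arrays, the other is higher on all 3, and CIRBP-AS1 overlaps.

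Of the 40 RBM symbols, 0 passed the limma threshold, beside 3.06% of all genes (1.67% lower and 1.4% higher). With an unadjusted p under 0.05 there were 4 (RBM4B and RBM26 higher, RBM42 and RBM8A lower), beside 18.9% of all genes. Non-overlapping groups were seen for 9 of 40, with 4 higher and 5 lower, or 22.5% against 27% of all genes (13.2% higher and 13.8% lower). These shares do not set the RBM genes above the background. The changes ran from -0.29 (RBM38) to 0.33 (RBM4B), with a median of -0.02 against 0.0029 over all genes. A change smaller than 0.15 log2 in size was found for 28 of 40 (70.0%), beside 56.9% of all genes.

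**Figure D3:**
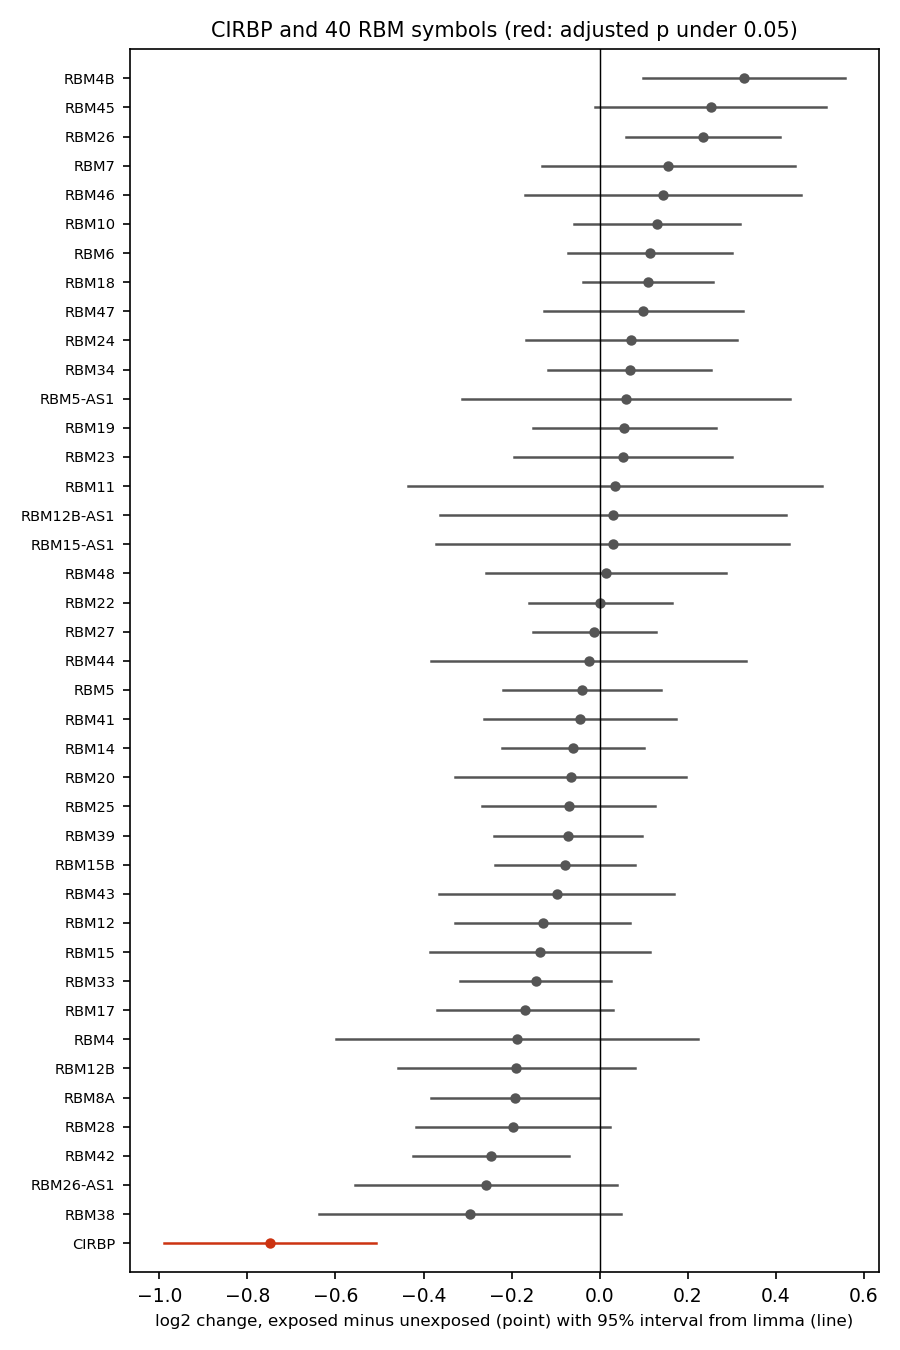
Log2 change, exposed minus unexposed, of CIRBP and the 40 RBM symbols (points) with limma 95% intervals (lines), sorted by change. CIRBP at -0.75 is the only member past the threshold and lies apart from the RBM symbols, which run from -0.29 to 0.33.

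Among splicing regulators and spliceosome genes, 17 of 18 listed were measured and none passed, with 8 positive and 9 negative changes and a median of -0.04. RBM4B, a splicing regulator, stood at 5.54, 5.55 and 5.54 in unexposed and at 5.71, 5.98 and 5.92 in exposed replicates. All exposed arrays lay above the unexposed ones, which were nearly identical. Its change was 0.33 (SE 0.10, 95% interval 0.10 to 0.56, limma adjusted p = 0.124). RBM4, its close paralog, lay well below the array medians of 3.96 to 3.99, at 1.78 to 2.29 in unexposed and 1.80 to 2.03 in exposed cells, and its change was -0.19 (SE 0.18). These paralogs are similar in sequence, so signal can be shared between their probe sets.

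RBM42, a spliceosome-associated protein, stood at 8.63, 8.70 and 8.61 in unexposed and at 8.48, 8.25 and 8.46 in exposed replicates. The groups did not overlap, with exposed replicate 2 lowest. The change was -0.25 (SE 0.08, 95% interval -0.42 to -0.07, limma adjusted p = 0.129).

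RBM38, a p53 target that binds the CDKN1A message, stood at 5.84, 5.79 and 5.66 in unexposed and at 5.14, 5.62 and 5.65 in exposed replicates. The groups were separated by a narrow margin, and exposed replicate 1 was far below the others. Its change of -0.29 (SE 0.15, limma adjusted p = 0.342) was -0.13 without exposed replicate 1. RBM17, known as SPF45, which acts in 3' splice site use, was at 5.95 to 6.03 in unexposed and 5.74 to 5.91 in exposed cells, also without overlap, with a change of -0.17 (limma adjusted p = 0.346).

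RBM5, RBM6 and RBM10 are related regulators of alternative splicing, with roles in apoptosis. Their changes were -0.04 for RBM5, 0.11 for RBM6 and 0.13 for RBM10, and exposed and unexposed values overlapped for all 3. RBM39, a splicing coactivator, and its relative RBM23 were at -0.07 and 0.05. RBM25, which influences BCL2L1 splicing, was at -0.07 and the spliceosome component RBM22 at 0.00. RBM48, which takes part in minor intron splicing, was at 0.01 and RBM41 at -0.04. The 95% intervals, such as -0.16 to 0.16 for RBM22 and -0.24 to 0.10 for RBM39, leave room for modest changes in either direction.

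RBM20, the heart regulator of titin splicing, stood at 4.26 to 4.45 over all arrays, close to the array medians, with a change of -0.07. RBM24, known from muscle, was at 4.49 to 4.55 in unexposed and 4.57 to 4.64 in exposed cells. These groups did not overlap, yet the change was 0.07 (95% interval -0.17 to 0.31). RBM11, known from brain and testis, lay at 1.64 to 2.26 and overlapped, with a change of 0.04.

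In the group of exon junction, nuclear RNA decay and 3' end genes, 4 of 4 were measured, with 2 positive and 2 negative changes and none past the threshold. RBM26, a zinc finger protein linked to nuclear decay of polyadenylated RNA, stood at 8.74, 8.87 and 8.93 in unexposed and at 9.19, 9.01 and 9.04 in exposed replicates. The groups did not overlap, and the change was 0.23 (SE 0.08, 95% interval 0.06 to 0.41, limma adjusted p = 0.142). Its paralog RBM27 had a change of -0.01 with a 95% interval of -0.15 to 0.13.

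RBM8A, the Y14 core subunit of the exon junction complex, stood at 7.48, 7.58 and 7.43 in unexposed and at 7.38, 7.18 and 7.36 in exposed replicates. The groups did not overlap. The change was -0.19 (SE 0.08, limma adjusted p = 0.261). RBM7, a subunit of the nuclear exosome targeting complex, had a change of 0.16 (SE 0.12) with overlapping groups.

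RBM15 and RBM15B, which guide the m6A writer complex to RNA, had changes of -0.14 and -0.08. RBM33, linked to the m6A system, was at 7.77, 7.70 and 7.56 in unexposed and at 7.53, 7.52 and 7.55 in exposed replicates. RBM33 exposed arrays all lay below the unexposed ones, by a small margin, with a change of -0.14 (limma adjusted p = 0.349). All 3 changes in this group were negative, with a median of -0.14, and none passed.

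Of the nucleolar proteins for ribosome assembly, RBM28 stood at 7.73, 8.08 and 7.89 in unexposed and at 7.76, 7.68 and 7.67 in exposed replicates. The groups overlapped, since unexposed replicate 1 lay below exposed replicate 1. Its change was -0.20 (SE 0.10, limma adjusted p = 0.319). RBM19 was at 0.06 and RBM34 at 0.07. RBM14, a transcriptional coactivator of paraspeckles, was at -0.06.

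RBM47, a cofactor of C-to-U RNA editing, was at 0.10, and RBM46, known from germ cells, was at 0.14 with levels of 1.88 to 2.25 below the array medians. RBM45, an RNA-binding protein of the nervous system, stood at 5.77, 5.69 and 6.03 in unexposed and at 6.18, 6.09 and 5.99 in exposed replicates. It overlapped because unexposed replicate 3 exceeded exposed replicate 3, and its change was 0.25 (SE 0.11, limma adjusted p = 0.283).

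RBM18 stood at 7.95, 7.90 and 7.83 in unexposed and at 8.03, 8.01 and 7.96 in exposed replicates. These groups did not overlap, by a small margin, and the change was 0.11 (SE 0.06, limma adjusted p = 0.411). The other symbols had changes of -0.19 for RBM12B, -0.13 for RBM12, -0.10 for RBM43 and -0.02 for RBM44, all with overlapping groups. RBM12, at 9.08 to 9.40, had the highest signal of the members and RBM44, at 2.63 to 3.01, was below the array medians. Probe sets differ in brightness, so these levels do not rank the genes.

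**Figure D4:**
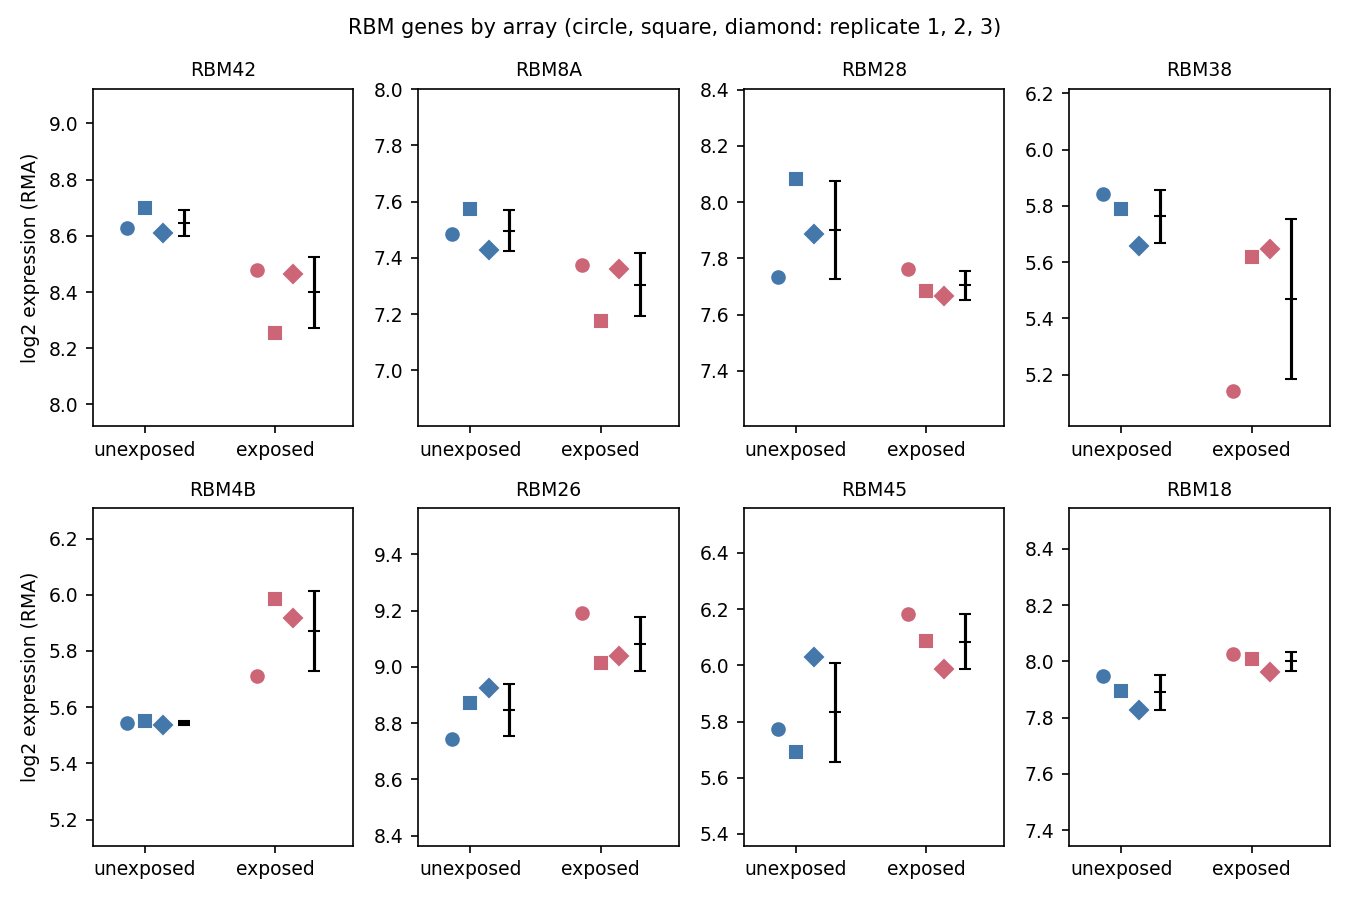
Log2 expression by array of 8 RBM genes, 4 with a negative change (upper row) and 4 with a positive change (lower row), with mean ± SD of the 3 arrays per group beside the points; each panel spans 1.2 log2 units. Groups do not overlap for RBM42, RBM8A, RBM38, RBM4B, RBM26 and RBM18, and overlap for RBM28 and RBM45.

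The 4 antisense symbols (RBM5-AS1, RBM12B-AS1, RBM15-AS1 and RBM26-AS1) had overlapping groups. RBM26-AS1, whose host gene RBM26 is described above, stood at 5.33, 5.51 and 5.31 in unexposed and at 4.97, 5.05 and 5.35 in exposed replicates, a change of -0.26 (SE 0.13, limma adjusted p = 0.336). Exposed replicate 3 lay above unexposed replicates 1 and 3 and below unexposed replicate 2. Its other probe set, 16780047, had a change of 0.25 (SE 0.17) at a signal of 2.16 to 2.80. RBM12B, which also has 2 probe sets, had a change of -0.19 on each.

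The per-array difference between CIRBP and each relative was compared between the groups, since this cancels any shift common to an array. For 39 of 40 RBM symbols the difference was lower on all exposed than on all unexposed arrays. The same held for 92.1% of all 14883 other genes, so it is not a feature of the RBM genes. The exception was RBM4, whose signal lay well below the array medians. The difference of changes ran from -1.08 (RBM4B) to -0.45 (RBM38), with a median of -0.73. An exact two-sided permutation test over 6 arrays gave p = 0.1 for the 39 and p = 0.2 for RBM4, and 0.1 is the smallest p that 3 against 3 arrays allow. That test therefore cannot reach 0.05 for any single pair, and 40 pairs were compared.

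For RBM42 the mean of CIRBP minus RBM42 was 0.0802 on unexposed and -0.42 on exposed arrays, which is -0.50 apart. For RBM26, whose own change was positive, CIRBP minus RBM26 was -0.12 on unexposed and -1.10 on exposed arrays, which is -0.98 apart. For RBM38 the corresponding means were 2.96 and 2.51, which is -0.45 apart. RBM38 was thus the relative whose change lay nearest to that of CIRBP on all arrays. This place hung on exposed replicate 1, without which the RBM38 change was -0.13. The RBM42 change stayed between -0.29 and -0.18 with any array left out.

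Genes around the function of CIRBP and RBM proteins were taken from lists. Of 13 listed genes of temperature-dependent splicing, 12 were measured and 1 fell, beside 1.67% of all genes, with a median change of -0.13. An unadjusted p under 0.05 was reached by 5 of the 12 (4 lower, 1 higher), beside 18.9% of all genes. The same 4 and 1 had groups that did not overlap, beside 27% of all genes. TRA2B, a splicing activator, stood at 8.67, 8.77 and 8.74 in unexposed and at 8.34, 8.33 and 8.43 in exposed replicates. The groups did not overlap, and the change was -0.36 (SE 0.06, limma adjusted p = 0.0336). That call was lost without any single array but exposed replicate 3, with limma adjusted p up to 0.132. In the settings where it was lost, 0 to 67 of all genes passed. The splicing factor SRSF2 had a change of -0.28 (limma adjusted p = 0.107), the related SRSF5 -0.30 (0.111) and SRSF3 -0.24 (0.139), U2AF2, the large subunit of the U2 auxiliary factor, 0.13 (0.162) and the kinase CLK3 0.19 (0.335). CLK1 and CLK4, the kinases that respond to temperature, were at 0.04 and 0.18.

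Of 9 listed CIRBP targets and receptors, 8 were measured and 1 rose, beside 1.4% of all genes. Of the 8, 2 had an unadjusted p under 0.05 (LY96 higher, CLOCK lower), beside 18.9% of all genes. Groups did not overlap for 2 higher (LY96 and TLR4) and 1 lower (CLOCK), beside 13.2% and 13.8% of all genes. LY96, also called MD-2, the partner of TLR4 in receiving extracellular CIRBP, stood at 5.15, 5.41 and 5.26 in unexposed and at 5.76, 5.86 and 5.70 in exposed replicates. The change was 0.50 (SE 0.10, limma adjusted p = 0.0484), and it did not pass with any array left out (limma adjusted p = 0.0768 to 0.171). In those settings 0 to 325 of all genes passed. TLR4, at 3.95 to 4.48 near the array medians, had a change of 0.28 (limma adjusted p = 0.315). CLOCK, whose message CIRBP binds, had a change of -0.21 with non-overlapping groups (limma adjusted p = 0.0868), and TREM1 was at -0.31 (0.393).

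None of 7 measured regulators of CIRBP and RBM3 (of 13 listed) passed, beside 3.06% of all genes, and their median was -0.09. An unadjusted p under 0.05 was reached by 4 of the 7 (2 higher, 2 lower), beside 18.9% of all genes. These 4 had groups that did not overlap, beside 27% of all genes. DYRK1B, a kinase, was at 0.42 (limma adjusted p = 0.0522), HSF1, the heat shock transcription factor, at 0.29 (0.0868), SP1 at -0.14 (0.196) and the methyltransferase PRMT1 at -0.34 (0.194). Of 23 stress granule genes 13 were measured and 0 passed, beside 3.06% of all genes, with a median of -0.02. An unadjusted p under 0.05 was reached by 2 of the 13, both lower, beside 18.9% of all genes. PRRC2C was at -0.21 (limma adjusted p = 0.0647), FMR1 at -0.23 (0.223), ATXN2 at 0.18 (0.332) and EIF2AK2 at 0.12 (0.411). Of 8 cold-shock domain genes 5 were measured and 0 passed, beside 3.06% of all genes. None of the 5 had an unadjusted p under 0.05, beside 18.9% of all genes. YBX1 was at -0.05, YBX2 at -0.23, LIN28A at 0.23, YBX3 at 0.10 and LIN28B at -0.13. RTN3, the translational target of RBM3, was at 0.04.

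**Figure D5:**
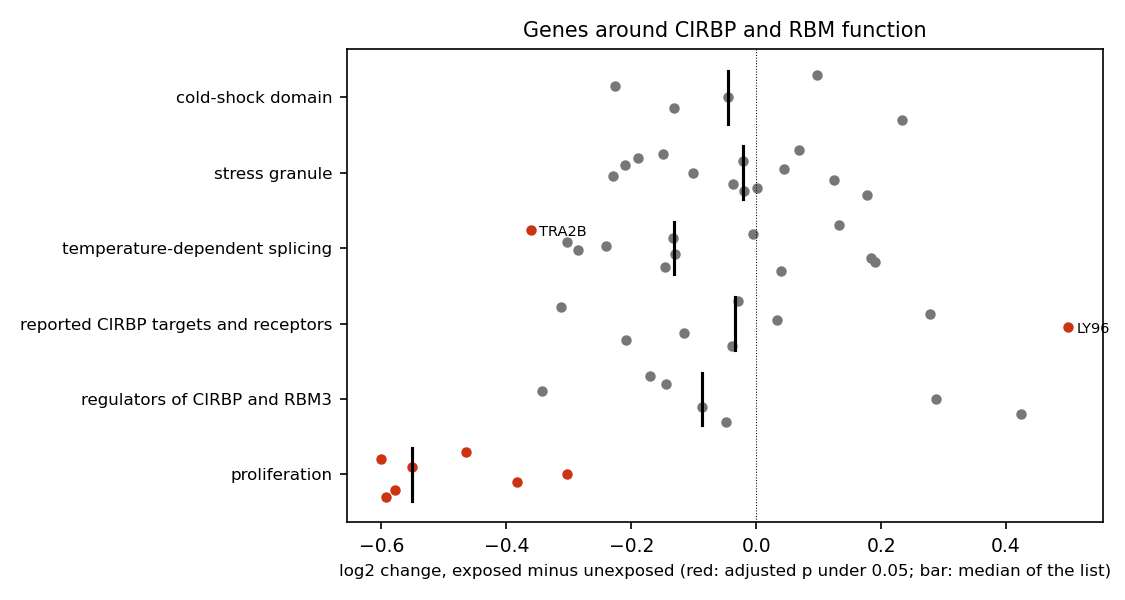
Log2 change of the measured genes of 6 lists, with 1 point per gene and a bar at each list's median. TRA2B and LY96 are the genes past the threshold outside the proliferation list, in which all 7 genes fell.

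The arrays were alike in overall signal, with medians of 3.96 to 3.99 and pairwise correlations of 0.982 to 0.988 over all probe sets. Unexposed replicate 2 stood farthest out on the first principal component, and without it the CIRBP change was -0.71. The labelled cell type was checked on mesenchymal glioma markers, of which 6 of 8 were measured, among them VIM at 10.4 to 10.6 and FN1 at 11.9 to 12.2. None passed, beside 3.06% of all genes, and 5 of the 6 changes were negative, with a median of -0.09. Groups did not overlap for 3 of the 6, all lower (CD44, FN1 and MET), beside 13.8% of all genes. CHI3L1 had the 1 positive change, 0.14 (limma adjusted p = 0.430), with overlapping groups. Of the astroglial markers 3 of 4 were measured, with a mean of 3.63 to 3.93 on exposed and 3.68 to 3.91 on unexposed arrays, but the members differed. GFAP lay above the array medians at 4.79 to 4.93 in unexposed and 5.05 to 5.31 in exposed cells, a change of 0.35 (limma adjusted p = 0.143). S100B lay below them at 3.38 to 3.87 and 3.07 to 3.37, a change of -0.42 (limma adjusted p = 0.251), and neither overlapped. Of the neuronal markers 2 of 4 were measured, with means of 6.05 to 6.20 on exposed and 5.57 to 5.67 on unexposed arrays. MAP2 rose by 0.91 (limma adjusted p = 0.0287), beside 1.4% of all genes called higher, and SYP was at 0.04. Leukocyte (CD14, 1 of 4 measured), endothelial (2 of 3), epithelial (2 of 3) and oligodendrocyte (2 of 4) markers included none past the threshold. Of all genes 3.06% passed. On unexposed arrays the means of these marker lists were 2.74 to 3.18, 3.13 to 3.46, 4.87 to 5.11 and 4.51 to 4.69. CD14 was higher and OLIG2 lower on all exposed arrays, and the others overlapped, beside 27% of all genes without overlap. A test of change between the groups does not show cell identity. The part of these markers in the CIRBP result was not tested.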

How the data were processed

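The deposited values are log2 expression, made by the authors with RMA, per the submitters' processing notes. These list Transcriptome Analysis Console 3.0 and Affymetrix Expression Console 3.0. RMA aligns the arrays, so a change in total RNA per cell would not show. There are no detection calls. Groups came from the sample titles; descriptions of exposed samples also say "control".

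All 53617 probe sets were fitted in limma 3.58.1 (R 4.3.3; lmFit and eBayes, trend on, two-sided, no covariate, no filter). P-values were adjusted by Benjamini-Hochberg over 14884 representative probe sets, with a threshold of 0.05. Procedures were tested on simulated data. Figures used matplotlib 3.10.9. The number of arrays limits the precision.

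The members, lists and tests were chosen with earlier results of these data known. Named were CIRBP, RBM symbols past the threshold, the 4 smallest p-values in each direction, the highest and lowest signals, members of role groups, and, in related lists, genes past the threshold and the 2 smallest p-values in each direction. Further genes were named after their values were seen. RBM3 carried no probe set among those with 1 symbol, so its planned comparisons were not run. Of 37 protein-coding members 33 matched a RefSeq promoter. Same-numbered arrays did not deviate together.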

Additional observations from a re-analysis of the deposited data

How the results depend on the processing

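CIRBP kept its negative sign in 17 alternatives. With the replicate block its change was -0.75 and the call was lost (limma adjusted p = 0.127), as it was without a mean-variance trend (-0.75, 0.159) or variance moderation (-0.75, 0.143). The mean of both probe sets gave -0.11 (0.522), and the dimmer probe set, tried after seeing the data, gave 0.53. Leaving out an array gave -0.86 to -0.67.

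The RBM count was 0 in all 17 alternatives, with 2 to 6 at an unadjusted p under 0.05. Over all genes 456 passed. The count was 0 with the replicate block and without the trend, 4 without moderation, 84 with centring on ribosomal protein genes, 162 over all probe sets, 753 above the median level and 1209 with representative probe sets alone. Leaving out an array gave 0 to 325. In the related lists, proliferation aside, 2 genes passed. The count was 0 with the replicate block, with ribosomal centring, without trend or moderation and over all probe sets, 1 with median centring or probe set means, 3 above the median level or with array weights, and 7 with representative probe sets alone. Leaving out an array gave 0 to 1. CIRBP lay apart from 6 of 40 RBM genes with probe set means, and from 39 to 40 with an array left out.

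Signs turned for changes near 0: RBM27 with renewed quantile normalization (0.0268), RBM22 with median (-0.0105) or ribosomal centring (-0.0210), and RBM48 with ribosomal centring (-0.00809). With an array left out, ranges were -0.0396 to 0.0109 for RBM27, -0.0517 to 0.0465 for RBM22, -0.0538 to 0.0576 for RBM48, -0.13 to 0.17 for RBM11, -0.10 to 0.15 for RBM12B-AS1, -0.0941 to 0.17 for RBM15-AS1, -0.0921 to 0.0980 for RBM44, -0.0472 to 0.17 for RBM5-AS1, -0.0352 to 0.12 for RBM23, -0.0856 to 0.0201 for RBM41 and -0.00205 to 0.11 for RBM34. The causes were not tested. The block rests on shared numbers alone, with correlations of -0.0334, -0.0737 and -0.0420 between same-numbered arrays. The RBM3 alternatives were not run.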

Other observations

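Next to CIRBP in RefSeq order, FAM174C stood at 7.86, 7.60 and 7.79 in unexposed and at 8.11, 8.05 and 8.03 in exposed replicates, a change of 0.31 (limma adjusted p = 0.0816). MIDN, on the other side beyond CIRBP-AS1, had a change of -0.19 (limma adjusted p = 0.341). DAZAP1, an RNA-binding protein gene a few places away, fell, with a change of -0.34 (SE 0.06, limma adjusted p = 0.0336). It stood at 10.2, 10.1 and 10.2 in unexposed and at 9.87, 9.74 and 9.88 in exposed replicates, without overlap. EFNA2 (-0.08), PWWP3A (-0.02) and GAMT (0.09) had overlapping groups.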
